A study of Mus musculus with 23 samples.

Results

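The genes described here are the members of 4 solute carrier families that exchange or cotransport ions, namely the Slc4a, Slc9a, Slc12a and Slc26a genes. A gene was taken as a member when its symbol was Slc4a, Slc9a, Slc12a or Slc26a followed by a number, which selected 39 of the 55449 genes of the count table. Of these members, 10 were Slc4a, 9 Slc9a, 9 Slc12a and 11 Slc26a genes.

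RNA-seq was performed on colon tissues after either of a pair of B. fragilis strains had been given to HFD-fed Cdx2Apcf/w mice, to ask what a bacterial bile salt hydrolase (BSH) does to colon and tumor transcriptomes. BF BSHlow is B. fragilis 638R carrying an empty vector, and BF BSHhigh is the same strain carrying the bsh gene of B. fragilis NCTC9343. All mice were males of the C57BL/6 strain, aged 6-8 weeks at the start and fed a 60% HFD, and all carried a floxed Apc allele deleted by a Cre under the Cdx2 promoter, so that the normal and non-tumor tissues came from mice with the same deletion. The labels gave colonization 2 times a week, whereas the methods gave gavage every 3 days after antibiotics. Normal colon after 2 weeks gave 4 libraries with BF BSHlow and 4 with BF BSHhigh. After 12 weeks there were 4 libraries of BF BSHlow non-tumor tissues, 4 of BF BSHhigh non-tumor tissues, 4 of BF BSHlow tumors and 3 of BF BSHhigh tumors.

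The header of the count table named no BF BSHhigh tumor, and instead gave the names of BF BSHlow tumors 1, 2 and 3 a second time, over 3 further columns. These columns were taken as the BF BSHhigh tumors, against their header, because a table of the study listed their values under that group, and every result on BF BSHhigh tumors rests on this. They are called replicates a, b and c. Total expected counts were between 12401388 and 17903008 per library, with a median of 15874872. Gene levels are in CPM, the usual unit of a gene's counts relative to all counts of its library, with library sizes scaled by TMM, and levels of different members are compared only as CPM per kilobase of exon. A gene named as the largest part of a summed marker level, or as leading it, is the one with the most CPM, which depends on its length as well. Errors of levels are SD over libraries and errors of log2 fold changes are SE.

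Slc9a proteins exchange sodium for protons, most Slc4a proteins carry bicarbonate, Slc12a proteins carry chloride together with sodium or potassium, and Slc26a proteins exchange anions such as chloride, bicarbonate and sulfate. In the colon, apical sodium-proton exchange works side by side with chloride-bicarbonate exchange to absorb salt and water at the surface. Basolateral bicarbonate and chloride uptake serves secretion and the control of cell pH.

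The labelled tissues were first compared with marker genes. All 7 markers of epithelium were detected in each group, with summed levels of 11200.2 ± 1426 CPM in BF BSHlow non-tumor tissues (n = 4), 10669.9 ± 280.2 in BF BSHhigh non-tumor tissues (n = 4), 6795 ± 1923 in BF BSHlow tumors (n = 4) and 7025 ± 1315 in BF BSHhigh tumors (n = 3). The 5 markers of crypt base and WNT activity, which loss of Apc raises, summed to 39.6, 47.7, 49.7 and 56.3 CPM in BF BSHlow non-tumor tissues and to 1143, 881, 849 and 1445 CPM in BF BSHlow tumors. In BF BSHhigh mice they summed to 38.4, 34.7, 38.7 and 41.1 CPM in non-tumor tissues and to 659, 1061 and 871 CPM in tumors. Every tumor library was above every non-tumor library, so the markers went with the labels. Among the non-tumor libraries, replicate 4 of BF BSHlow had the highest Notum level, 5.93 CPM, against at most 1.24 CPM in the others.

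Promoter sequences were taken from RefSeq (GRCm38.p6), in which 27 of the 39 members had an entry, 35 entries in all. Each window holds 250 bases before and 50 bases after a start site. Both strands were searched for CTTTGAT for TCF/LEF, TTTATNG for CDX, CAAAGTCCA for HNF4, AGATAA for GATA factors and GGGCGG for the GC box, of which CAAAG of the HNF4 letters also ends the reverse complement of the TCF/LEF letters. These were found in 3.73%, 10.9%, 0.475%, 11.2% and 35.7% of 32851 promoters of this length, and in 1, 4, 0, 7 and 18 of the 35 member entries. Shown are 4 promoters of members that differed between tumors and non-tumor tissues, 1 of a member that was lower in tumors (Slc26a3) and 3 of members that were higher (Slc9a3, Slc26a9 and Slc12a4), 5′ to 3′ on the strand of the gene, with matches in capitals. Slc26a3 is at chr12:31437969-31438268 (+), Slc9a3 at chr13:74121163-74121462 (+), Slc26a9 at chr1:131743772-131744071 (+) and Slc12a4 at chr8:105966066-105966365 (-).
Slc26a3: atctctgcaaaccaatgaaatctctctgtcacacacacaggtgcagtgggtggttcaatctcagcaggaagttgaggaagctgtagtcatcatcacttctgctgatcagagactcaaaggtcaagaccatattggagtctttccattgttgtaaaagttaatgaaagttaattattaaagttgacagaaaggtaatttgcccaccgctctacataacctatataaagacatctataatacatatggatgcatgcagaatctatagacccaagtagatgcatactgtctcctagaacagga
Slc9a3: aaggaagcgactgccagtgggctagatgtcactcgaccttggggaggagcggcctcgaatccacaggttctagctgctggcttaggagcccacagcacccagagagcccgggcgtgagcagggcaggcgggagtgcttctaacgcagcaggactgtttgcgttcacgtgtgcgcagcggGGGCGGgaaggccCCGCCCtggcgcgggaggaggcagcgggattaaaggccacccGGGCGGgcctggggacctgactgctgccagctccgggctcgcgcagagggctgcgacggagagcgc
Slc26a9: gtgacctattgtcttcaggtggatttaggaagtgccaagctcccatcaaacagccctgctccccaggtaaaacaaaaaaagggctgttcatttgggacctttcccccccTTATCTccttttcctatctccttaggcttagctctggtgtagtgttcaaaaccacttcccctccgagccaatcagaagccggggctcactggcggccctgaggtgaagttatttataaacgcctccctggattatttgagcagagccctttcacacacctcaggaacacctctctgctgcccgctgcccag
Slc12a4: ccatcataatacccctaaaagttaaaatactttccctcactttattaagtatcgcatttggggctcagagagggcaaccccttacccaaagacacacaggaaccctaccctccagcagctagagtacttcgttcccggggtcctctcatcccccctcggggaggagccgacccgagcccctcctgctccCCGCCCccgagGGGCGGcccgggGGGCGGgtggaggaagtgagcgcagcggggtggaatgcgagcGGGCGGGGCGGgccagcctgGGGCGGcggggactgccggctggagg

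The Slc26a3 window held 0 matches, the Slc9a3 window 3 GC boxes, the Slc26a9 window 1 GATA match on the reverse strand and the Slc12a4 window 6 GC boxes, of which a pair share a base. No match of one motif overlapped a match of another in these windows. The gene counted as Slc26a3 spans chr12:31390871-31473917 (+), so the Slc26a3 window lies inside that gene and not at its first base. A match is a run of letters and not a site shown to be bound, and a window without one says nothing of a factor.

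Per kilobase, the most abundant members differed between tissues. In BF BSHlow non-tumor tissues they were Slc26a3, the apical chloride-bicarbonate exchanger also known as DRA, at 103 ± 29.6 CPM per kb, and Slc26a2, a sulfate transporter, at 99.7 ± 30.9, followed by Slc12a2, the basolateral sodium-potassium-chloride cotransporter, at 40.9 ± 3.59 and Slc9a2, an apical sodium-proton exchanger, at 28.9 ± 7.93. The levels of Slc26a3 and Slc26a2 differed by less than their spread. BF BSHhigh non-tumor tissues had the same order, at 70.3 ± 12.7, 69.1 ± 3.51, 47.3 ± 3.98 and 23.2 ± 3.39 CPM per kb, and Slc26a3 and Slc26a2 were again within their spread.

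In tumors the order was another. Slc9a3, an apical sodium-proton exchanger, was the most abundant member at 56.1 ± 6.59 CPM per kb in BF BSHlow tumors and 58.3 ± 8.83 in BF BSHhigh tumors, 33.2% and 32.5% of the sum over the members. Slc12a2 followed at 39.2 ± 18 and 40.4 ± 3.39 CPM per kb, and Slc4a2, the widely expressed basolateral chloride-bicarbonate exchanger, at 12.0 ± 1.57 and 10.6 ± 0.730. In BF BSHlow tumors the distance between Slc9a3 and Slc12a2 was smaller than the sum of their spreads. Summed over the 39 members, the levels were 369 and 324 CPM per kb in BF BSHlow and BF BSHhigh non-tumor tissues and 169 and 179 in the tumors.

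Normal colon at 2 weeks led with Slc26a3 at 97.4 ± 78.6 CPM per kb, Slc9a2 at 85.9 ± 13.5, Slc26a2 at 69.6 ± 22.6 and Slc4a2 at 53.3 ± 8.90 in BF BSHlow mice. With BF BSHhigh, Slc9a2 was at 100.5 ± 9.34, Slc26a3 at 94.7 ± 55.1, Slc9a3 at 72.8 ± 7.36 and Slc26a2 at 63.4 ± 14.5 CPM per kb. The spread of Slc26a3 covered the distances to its neighbours in both groups. The summed levels were 491 and 524 CPM per kb.

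Tumors were compared with non-tumor tissues within each strain, in a fit of all 15 libraries of 12 weeks. Slc26a3, Slc26a2 and Slc9a2 were lower in tumors of both strains, together with the bicarbonate cotransporters Slc4a4 and Slc4a7 and with Slc12a8. Slc9a3, Slc9a4, Slc26a9, Slc4a5, Slc4a11 and Slc12a4 were higher in tumors of both strains. With BF BSHlow, 14 of 31 members tested were called in edgeR (adjusted p-value under 0.05, with a log2 fold change beyond 1 in either direction), 7 higher and 7 lower, where 36.2% of 16454 genes were. Of the 31 members, 13 were called with BF BSHhigh, 6 higher and 7 lower, where 29.4% of 16454 genes were. Counts with DESeq2 or at an unadjusted p-value here and below also need a log2 fold change beyond 1. DESeq2 counted 13 and 14 members. The median log2 fold change of the members was -0.08 with BF BSHlow and -0.22 with BF BSHhigh, against 0.04 and 0.04 over all genes tested. Members with 0 or 1 counts in a group lie far from the median, which does not move when they are put at their bound. Members entered the test only past a filter on low counts, and one that passed through the group where it is high had to differ, so these counts do not describe all 39 members. In bulk tissue, fewer cells of a type and less RNA per cell cannot be told apart. The libraries of this fit are also those of the interaction and of the comparisons between strains at 12 weeks given further on.

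**Figure D1:**
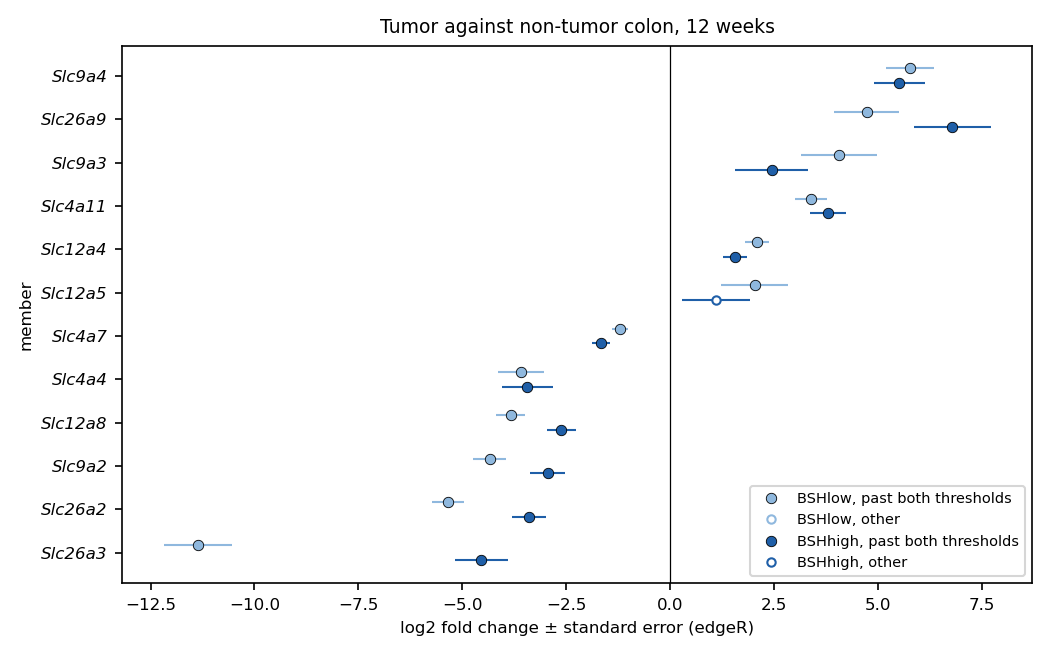
Log2 fold change of tumor over non-tumor tissues for the 12 members drawn of those that passed with at least 1 strain (horizontal axis, with SE bars) in BF BSHlow and BF BSHhigh mice, where filled points passed both thresholds in edgeR. Slc26a3 lies lowest with BF BSHlow, at -11.36, and Slc9a4 and Slc26a9 lie highest, at 5.77 with BF BSHlow and 6.79 with BF BSHhigh, and Slc4a5 and Slc26a7 are not drawn because a group had 0 or 1 counts.

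Among the Slc26a genes, Slc26a3 was at 597, 441, 889 and 706 CPM in BF BSHlow non-tumor tissues and at 0.490, 0.308, 0 and 0.195 CPM in BF BSHlow tumors. Each tumor was under 1 CPM and none came near a non-tumor library. In BF BSHhigh mice Slc26a3 was at 442, 536, 472 and 342 CPM in non-tumor tissues and at 39.1, 15.7 and 3.43 CPM in tumors a, b and c. The groups again did not overlap, with tumor a the highest and tumor c the lowest of the tumors. The log2 fold change was -11.36 ± 0.82 with BF BSHlow (edgeR, adjusted p = 6.01e-08) and -4.54 ± 0.64 with BF BSHhigh (edgeR, adjusted p = 4.30e-05), and -5.55 without tumor a.

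Slc26a2, which supplies sulfate for mucin and matrix sulfation, was at 1173, 925, 1050.2 and 1786 CPM in BF BSHlow non-tumor tissues and at 39.8, 35.2, 19.7 and 28.9 CPM in BF BSHlow tumors. With BF BSHhigh the values were 804, 909, 849 and 858 CPM in non-tumor tissues and 115, 97.5 and 32.4 CPM in tumors a, b and c. Tumors and non-tumor tissues did not overlap with either strain, and tumor c of BF BSHhigh lay within the range of the BF BSHlow tumors. Its log2 fold change was -5.34 ± 0.39 with BF BSHlow (edgeR, adjusted p = 6.45e-08) and -3.40 ± 0.40 with BF BSHhigh (edgeR, adjusted p = 9.78e-06).

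Slc26a9, an epithelial chloride channel and transporter best known from stomach and airway, was at 0.148, 0, 0 and 1.35 CPM in BF BSHlow non-tumor tissues and at 9.86, 8.82, 13.7 and 9.08 CPM in BF BSHlow tumors. In BF BSHhigh mice it was at 0.187, 0, 0.121 and 0.150 CPM in non-tumor tissues and at 11.9, 12.7 and 15.4 CPM in tumors. All 7 tumors were above all non-tumor libraries, of which replicate 4 of BF BSHlow stood highest. In edgeR the log2 fold change was 4.73 ± 0.78 with BF BSHlow (edgeR, adjusted p = 0.000104) and 6.79 ± 0.93 with BF BSHhigh (edgeR, adjusted p = 3.31e-05). Without replicate 4 of the BF BSHlow non-tumor tissues, 2 counts remained in that group and the fitted value was 7.66, which then depends on the prior count.

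Slc26a6, an anion exchanger of the apical membrane, was low throughout, at 1.63, 1.6, 0.886 and 1.35 CPM in BF BSHlow non-tumor tissues and 2.70, 2.56, 2.10 and 1.81 CPM in BF BSHlow tumors. With BF BSHhigh it was at 2.06, 1.74, 1.21 and 2.17 CPM in non-tumor tissues and at 2.58, 2.72 and 2.43 CPM in tumors. The groups did not overlap within either strain, but the log2 fold changes, 0.73 ± 0.26 and 0.52 ± 0.28, were under the limit of 1.

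Slc26a7, an anion exchanger and channel, had 32 counts in BF BSHlow non-tumor tissues and 6 in the tumors, a log2 fold change of -2.66 ± 1.03 (edgeR, adjusted p = 0.0345), and the call was lost without non-tumor replicate 2 or 3 (-1.93 and -2.49) or tumor 3 or 4 (-2.29 in both cases). It had 53 counts with BF BSHhigh in non-tumor tissues and 1 in tumors, that of tumor a, a level 53.7-fold lower in tumors with a 95% counting interval of 9.22 to 2159 (edgeR, adjusted p = 0.00494). Intervals and floors of counts cover counting error only.

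Among the sodium-proton exchangers, Slc9a2 was at 189, 162, 172 and 283 CPM in BF BSHlow non-tumor tissues and at 8.83, 9.54, 14.1 and 8.01 CPM in BF BSHlow tumors. In BF BSHhigh mice the values were 184, 162, 174 and 129 CPM in non-tumor tissues and 39.4, 15.6 and 8.77 CPM in tumors a, b and c. No tumor reached a non-tumor library, and tumor a stood highest among the tumors. This was a log2 fold change of -4.34 ± 0.40 with BF BSHlow (edgeR, adjusted p = 4.24e-07) and -2.95 ± 0.41 with BF BSHhigh (edgeR, adjusted p = 4.28e-05), and -3.74 without tumor a.

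Slc9a3, by contrast, was at 12.2, 11.3, 9.20 and 39.1 CPM in BF BSHlow non-tumor tissues and at 342, 292, 335 and 266 CPM in BF BSHlow tumors. BF BSHhigh mice had it at 199, 8.28, 9.51 and 19.1 CPM in non-tumor tissues and at 276, 373 and 314 CPM in tumors. Every tumor was above every non-tumor library of its strain, but replicate 1 of BF BSHhigh and replicate 4 of BF BSHlow stood far above the other non-tumor libraries. On the log2 scale the change was 4.07 ± 0.91 with BF BSHlow (edgeR, adjusted p = 0.00128) and 4.82 without non-tumor replicate 4. With BF BSHhigh it was 2.45 ± 0.88 (edgeR, adjusted p = 0.0283) and 4.70 without non-tumor replicate 1. This call was lost when only the groups compared were fitted (edgeR, adjusted p = 0.0756), and without non-tumor replicate 2 (2.08), 3 (2.09) or 4 (2.15), or tumor b (2.33) or c (2.47), with adjusted p-values of 1.78e-05 to 0.0702 over the libraries left out in turn (edgeR). DESeq2 gave Slc9a3 no adjusted p-value in either strain.

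Slc9a4, a basolateral sodium-proton exchanger best known from the stomach, was at 0.0741, 0, 0.204 and 0.581 CPM in BF BSHlow non-tumor tissues and at 13.5, 10.8, 10.5 and 14.1 CPM in BF BSHlow tumors. In the BF BSHhigh libraries it was at 0.187, 0.124, 0.0606 and 0.150 CPM in non-tumor tissues and at 4.03, 6.43 and 8.34 CPM in tumors. Non-tumor libraries were all under 1 CPM and tumors all above it. The log2 fold change was 5.77 ± 0.58 with BF BSHlow (edgeR, adjusted p = 1.0e-06), 7.0 without non-tumor replicate 4, and 5.52 ± 0.62 with BF BSHhigh (edgeR, adjusted p = 6.62e-06).

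Of the exchangers Slc9a7, Slc9a8 and Slc9a9, none passed both thresholds with either strain. Slc9a5 had a log2 fold change of -1.08 ± 0.45 with BF BSHhigh (edgeR, adjusted p = 0.0529), which passed with DESeq2 (-1.14), with RLE scaling (-1.13) and without tumor a (-1.62).

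Among the bicarbonate transporters, Slc4a4, the basolateral sodium-bicarbonate cotransporter, was at 78.0, 138, 317 and 55.0 CPM in BF BSHlow non-tumor tissues and at 10.9, 11, 20.6 and 6.64 CPM in BF BSHlow tumors. The BF BSHhigh libraries had it at 62.8, 131, 189 and 63.1 CPM in non-tumor tissues and at 9.67, 10.6 and 10.9 CPM in tumors. Tumors were below non-tumor tissues throughout, and the non-tumor libraries varied most, with replicate 3 highest in both strains. Its log2 fold change was -3.59 ± 0.56 with BF BSHlow (edgeR, adjusted p = 5.95e-05), -2.89 without non-tumor replicate 3, and -3.43 ± 0.62 with BF BSHhigh (edgeR, adjusted p = 0.000356). Slc4a7, another sodium-bicarbonate cotransporter, had a mean of 136 ± 14 and 199 ± 26.7 CPM in BF BSHlow and BF BSHhigh non-tumor tissues and of 60.0 ± 20.9 and 63.0 ± 10.8 CPM in tumors. It fell by 1.20 and by 1.67 on the log2 scale.

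Slc4a11, which carries protons or hydroxide rather than bicarbonate, was at 0.667, 1.66, 3.61 and 2.52 CPM in BF BSHlow non-tumor tissues and at 22.4, 23.0, 30.2 and 14.9 CPM in BF BSHlow tumors. In mice with BF BSHhigh it was at 0.687, 1.12, 1.58 and 0.748 CPM in non-tumor tissues and at 16.5, 12.0 and 15.5 CPM in tumors. Tumors were above non-tumor tissues without overlap. In edgeR the log2 fold change was 3.39 ± 0.39 with BF BSHlow (edgeR, adjusted p = 4.09e-06) and 3.80 ± 0.43 with BF BSHhigh (edgeR, adjusted p = 6.79e-06).

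Slc4a5, an electrogenic sodium-bicarbonate cotransporter, was at 0.0741, 0, 0.273 and 0.0645 CPM in BF BSHlow non-tumor tissues and at 3.53, 0.103, 0.572 and 6.89 CPM in BF BSHlow tumors, so that tumors 1 and 4 were high and tumor 2 overlapped the non-tumor tissues. This was a log2 fold change of 4.70 ± 1.23 (edgeR, adjusted p = 0.00566), 3.70 without tumor 4 and 5.78 without non-tumor replicate 3, where 2 non-tumor counts remained. With BF BSHhigh it had 0 counts in the 4 non-tumor libraries and was at 1.91, 2.41 and 0.953 CPM in tumors, 111 counts in all, which is at least 36.5-fold higher over a floor of 3 counts in the non-tumor group (edgeR, adjusted p = 0.00412).

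Slc4a2 was at 98.8, 84.3, 93.0 and 117 CPM in BF BSHlow non-tumor tissues and at 88.7, 114, 108 and 89.5 CPM in BF BSHlow tumors. For BF BSHhigh it was at 131, 95.1, 92.5 and 89.8 CPM in non-tumor tissues and at 87.2, 82.7 and 94.7 CPM in tumors. Tumors overlapped non-tumor tissues in both strains. Slc4a3, a chloride-bicarbonate exchanger of excitable tissue, was at 3.33, 6.93, 3.27 and 2.90 CPM in BF BSHlow non-tumor tissues and at 5.39, 2.62, 4.15 and 5.86 CPM in BF BSHlow tumors. In BF BSHhigh mice it was at 4.44, 3.92, 3.21 and 3.29 CPM in non-tumor tissues and at 2.17, 3.35 and 3.76 CPM in tumors, and the groups overlapped as well.

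Among the Slc12a genes, Slc12a8, whose substrate is debated, was at 51.9, 43.2, 39.6 and 36.8 CPM in BF BSHlow non-tumor tissues and at 2.31, 3.23, 4.81 and 1.81 CPM in BF BSHlow tumors. Among BF BSHhigh libraries it was at 98.5, 82.9, 56.4 and 77.7 CPM in non-tumor tissues and at 21.8, 9.02 and 8.05 CPM in tumors a, b and c. The BF BSHhigh tumors lay between the BF BSHlow tumors and all non-tumor tissues. On the log2 scale the change was -3.83 ± 0.35 with BF BSHlow (edgeR, adjusted p = 4.23e-07) and -2.62 ± 0.36 with BF BSHhigh (edgeR, adjusted p = 3.21e-05), and -3.21 without tumor a.

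Slc12a4, a potassium-chloride cotransporter found in most tissues, was at 6.89, 13.9, 6.81 and 3.68 CPM in BF BSHlow non-tumor tissues and at 33.5, 37.1, 31.0 and 32.9 CPM in BF BSHlow tumors. BF BSHhigh mice had it at 7.81, 7.09, 9.21 and 9.42 CPM in non-tumor tissues and at 20.6, 24.1 and 29.7 CPM in tumors. Tumors were above non-tumor tissues in both strains. The log2 fold change was 2.09 ± 0.28 with BF BSHlow (edgeR, adjusted p = 1.43e-05) and 1.56 ± 0.29 with BF BSHhigh (edgeR, adjusted p = 0.000414).

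Slc12a2 was at 469, 392, 444 and 480.0 CPM in BF BSHlow non-tumor tissues and at 270.1, 675, 499.9 and 269 CPM in BF BSHlow tumors, where tumors 1 and 4 were below and tumors 2 and 3 above the non-tumor range. Under BF BSHhigh it was at 550.1, 541, 454 and 520.5 CPM in non-tumor tissues and at 431, 410.1 and 482 CPM in tumors, with overlap. Slc12a5, the neuronal potassium-chloride cotransporter, had a mean of at most 0.572 CPM. It had a log2 fold change of 2.04 ± 0.81 with BF BSHlow (edgeR, adjusted p = 0.0382), which was lost with no filter on low counts (2.04) and without non-tumor replicate 1 (2.08) or 2 (1.59) or tumor 1 (1.75), 3 (1.95) or 4 (1.97). The potassium-chloride cotransporter Slc12a7 and the related Slc12a9 did not pass both thresholds with either strain.

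**Figure D2:**
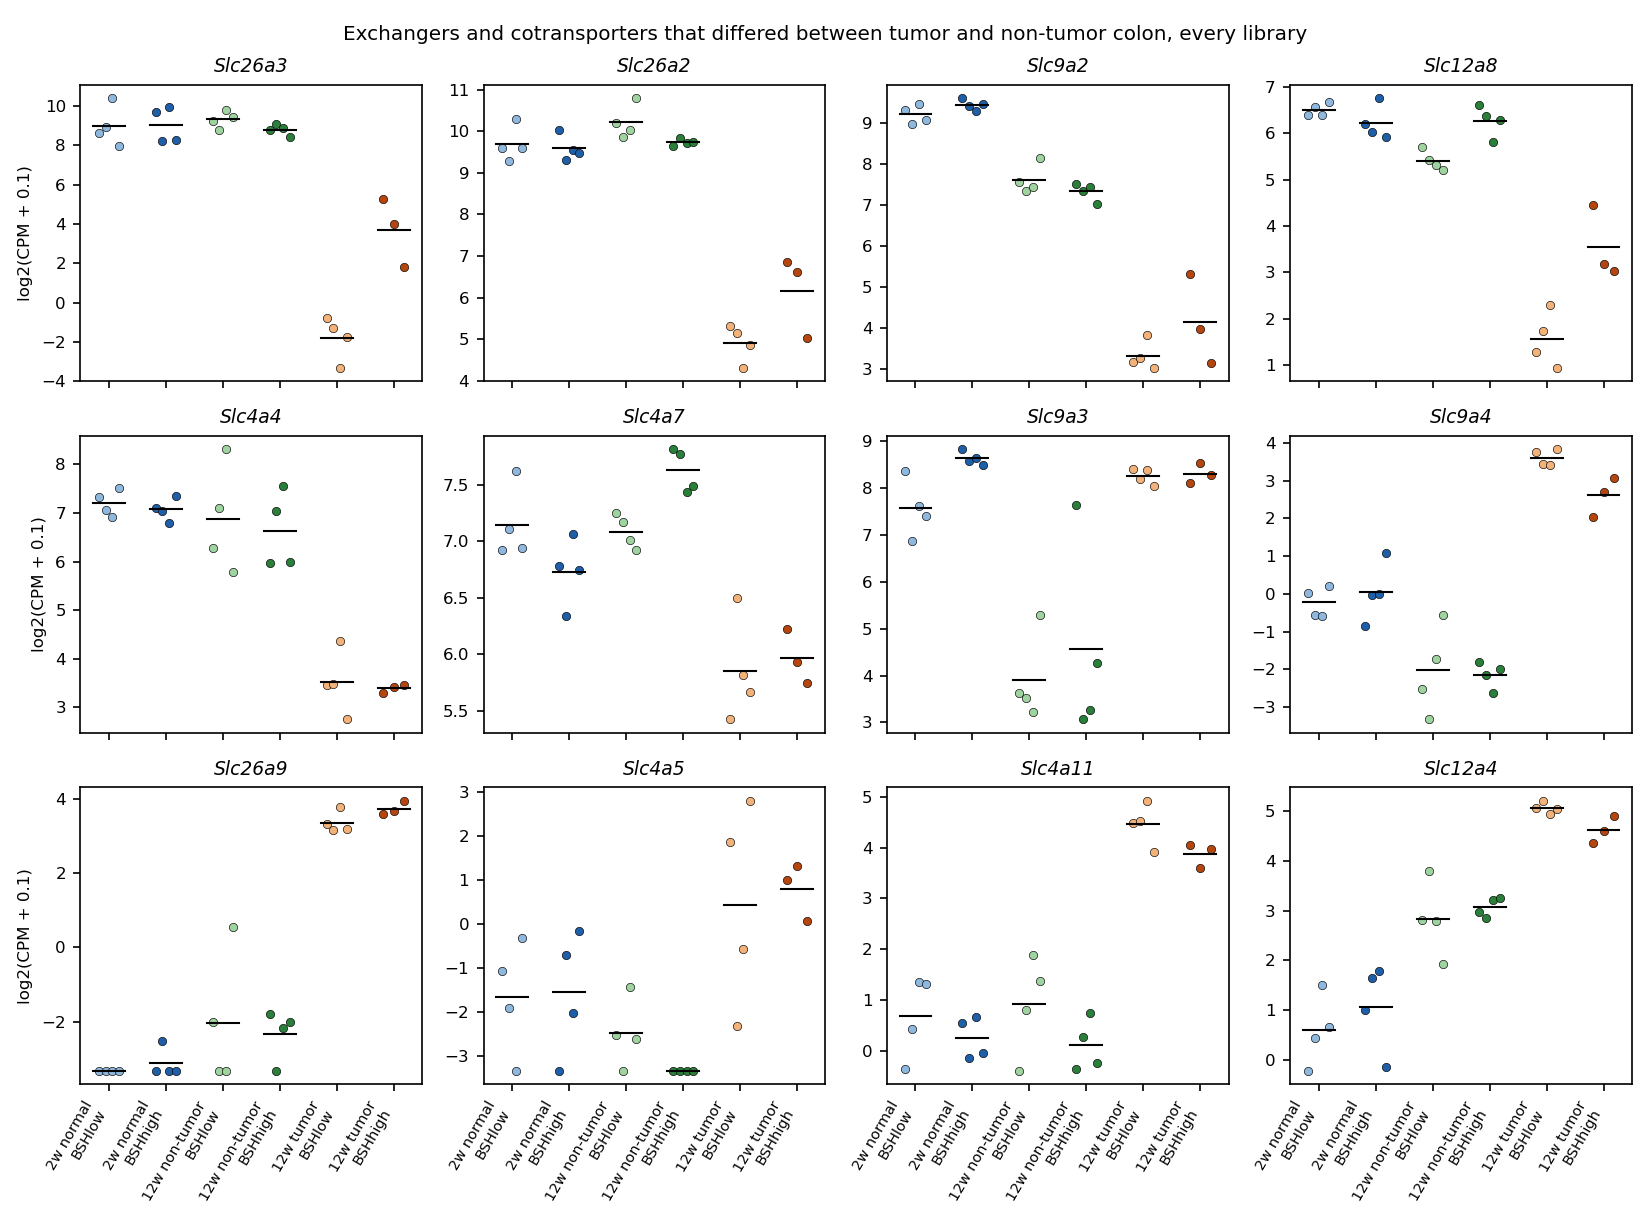
Levels of 12 members as log2 of CPM plus 0.1 (vertical axis, own scale in each panel) in the 6 groups, with a point for each library and a bar at the mean of the log2 values. Slc26a3 in BF BSHlow tumors lies under 1 CPM in every library, whereas Slc9a3 lies at 266 to 373 CPM in the 7 tumors.

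Other genes of salt transport were counted from a list of 28 genes. With BF BSHlow, 15 passed both thresholds in edgeR, 3 higher and 12 lower in tumors, and with BF BSHhigh 13 did, 3 higher and 10 lower. These were 53.6% and 46.4% of those tested, where 36.2% and 29.4% of all genes tested passed. Of the channels and pumps, 8 of 12 were lower in tumors of each strain and 0 were higher. Atp12a, the proton-potassium pump of the colon surface, was at 809, 542, 463 and 1487 CPM in BF BSHlow non-tumor tissues and at 2.40, 0.974, 4.48 and 0.586 CPM in BF BSHlow tumors, a log2 fold change of -8.63 ± 0.80 (edgeR, adjusted p = 5.10e-07) that was -9.30 without tumor 3. With BF BSHhigh it was at 739, 532, 468 and 689.7 CPM in non-tumor tissues and at 232, 129 and 29.4 CPM in tumors, a log2 fold change of -2.23 ± 0.66 (edgeR, adjusted p = 0.00993) that was -2.95 without tumor a. Tumors and non-tumor tissues did not overlap with either strain.

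Best2, a bicarbonate-permeable channel of goblet cells, had log2 fold changes of -7.97 ± 0.63 with BF BSHlow and -3.86 ± 0.52 with BF BSHhigh, the latter -5.11 without tumor a. Cftr, the chloride channel of the crypts, fell by 3.17 and 2.31 on the log2 scale, and the sodium pump subunit Atp1b1 fell as well in both strains. Of the 8 scaffolds and partners of sodium-proton exchangers, 2 were higher and 3 lower with BF BSHlow, and 2 higher and 2 lower with BF BSHhigh. Among them Tesc was higher by 5.31 ± 0.51 and 4.94 ± 0.51, and Pdzd3, a scaffold of apical transporters, had log2 fold changes of -6.20 ± 0.57 and -2.07 ± 0.48, the latter -2.90 without tumor a. Of the 8 WNK and SPAK kinase genes, which set the activity of Slc12a proteins, Wnk3 was higher by 3.43 ± 0.47 and 3.77 ± 0.54, Cab39 fell by 1.22 with BF BSHlow, and the others did not pass both thresholds.

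Markers of cell types moved with these results. All 8 markers of surface colonocytes were lower in BF BSHlow tumors and 7 of 8 in BF BSHhigh tumors. Their summed level was 4565, 3520.2, 3721 and 10032 CPM in BF BSHlow non-tumor tissues, with Saa1 the largest part, and 139.9, 151, 91.2 and 65.4 CPM in the tumors, with Car1 the largest part. With BF BSHhigh it was 6005, 3794, 4435 and 4983 CPM in non-tumor tissues and 1417, 644 and 291 CPM in tumors a, b and c, with Saa1 the largest part in both. All 6 goblet cell markers were lower in tumors of both strains. They summed to 15695, 12931, 12591 and 17306 CPM in BF BSHlow non-tumor tissues and 155, 161, 156 and 112 CPM in the tumors, with Fcgbp and Agr2 the largest parts of the sums. With BF BSHhigh the sums were 34049, 21432, 16517 and 19202 CPM in non-tumor tissues and 4531, 1382 and 613 CPM in tumors, with Fcgbp the largest part in both. None of the surface or goblet markers was at 0 in all libraries of a group.

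All 6 smooth muscle markers were lower in tumors of both strains. They summed to 1868, 8467, 3926 and 1513 CPM in BF BSHlow and 4341, 3371, 3935 and 3284 CPM in BF BSHhigh non-tumor tissues, with Tagln the largest part. In tumors the sums were 169, 204, 251 and 117 CPM with BF BSHlow and 343, 215 and 177 CPM with BF BSHhigh, with Acta2 the largest part. Of 7 markers of enteric neurons and glia, 7 and 6 were lower in tumors, where Uchl1 was the largest part of the sum and Sox10 was at 0 in the 4 BF BSHlow tumors. Their sums were 26.7, 40.1, 23.7 and 39.1 CPM in BF BSHlow and 25.4, 28.7, 17.9 and 25.1 CPM in BF BSHhigh non-tumor tissues. In tumors they were 5.25, 3.74, 2.72 and 3.37 CPM with BF BSHlow and 4.39, 3.84 and 3.72 CPM with BF BSHhigh. All 5 markers of crypt base and WNT activity were higher in tumors of both strains, with Axin2 the largest part of the sum in non-tumor tissues and Nkd1 in tumors.

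Neutrophil markers were higher in tumors, 3 of 3 with BF BSHlow and 2 of 3 with BF BSHhigh. They summed to 1.56, 3.95, 3.0 and 11.9 CPM in BF BSHlow and 118, 29.1, 6.91 and 13.9 CPM in BF BSHhigh non-tumor tissues, and to 109, 40.1, 82.1 and 314 CPM and 239.9, 104 and 387 CPM in the tumors, with S100a9 the largest part. Replicate 1 of BF BSHhigh, the non-tumor library with the highest Slc9a3 level, also had the highest neutrophil and goblet sums among the non-tumor libraries. Replicate 4 of BF BSHlow, with the highest Slc9a3, Slc9a4 and Slc26a9 levels of its group, had the highest surface colonocyte sum among them and also the highest sum of crypt base and WNT markers, 56.3 CPM, with the highest Nkd1 and Notum levels (16.7 and 5.93 CPM).

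Of 6 erythroid markers, led by Hbb-bs, 5 were higher with BF BSHlow, where the sums ranged over 122 to 338 CPM in non-tumor tissues and 344 to 3500.0 CPM in tumors. With BF BSHhigh 0 passed in edgeR, with 0 at an unadjusted p-value of 0.05 and 0 with DESeq2, at 209 to 2461 CPM and 274 to 3164 CPM. Of 4 fibroblast markers, led by Col3a1, 2 were higher with each strain, with sums of 259 to 2546 CPM and 532 to 1025 CPM in BF BSHlow and BF BSHhigh non-tumor tissues and 1194 to 2799 CPM and 1435 to 1739.7 CPM in the tumors. Of 3 endothelial markers, 1 was higher with each strain, with sums of 52.0 to 76.5 CPM and 36.1 to 81.0 CPM in non-tumor tissues and 128 to 136 CPM and 115 to 132 CPM in tumors. Of 5 leukocyte markers, 1 was higher and 2 lower with BF BSHlow and 1 was lower with BF BSHhigh. Of the 7 epithelial markers, 1 was higher and 2 lower with BF BSHlow and 1 was higher with BF BSHhigh. The part of these cell types in the results on the members was not tested.

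The strains were next compared within tumors, which asks whether BSH goes with other levels of the members there. Slc26a3 was higher in BF BSHhigh tumors, and Slc12a8, Slc26a2 and Slc9a2 had higher means without passing the test. In edgeR, 1 of 30 members tested passed both thresholds, where 0.476% of 15325 genes did. At an unadjusted p-value of 0.05 with the same fold 3 members passed, as did 841 of the 15325 genes. The member called, Slc26a3, had 10, 6, 0 and 4 counts in BF BSHlow tumors and 756, 352 and 72 in BF BSHhigh tumors. It passed the filter on low counts through the group where it is high and had to differ. The count of 1 therefore does not describe the members as a set. DESeq2 counted 3 members, Slc26a3, Slc12a8 and Slc26a2. The median log2 fold change was 0.04 over the members and -0.03 over all genes tested. Over all genes, edgeR called 73 and DESeq2 534.

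Slc26a3 was at 0.490, 0.308, 0 and 0.195 CPM in the 4 BF BSHlow tumors and at 39.1, 15.7 and 3.43 CPM in BF BSHhigh tumors a, b and c. The groups did not overlap, and tumor a was the highest. Its log2 fold change was 6.25 ± 0.98 (edgeR, adjusted p = 0.0481). The call was kept without tumor c and lost without each other library, with 6.83, 6.37, 5.83 and 6.16 without BF BSHlow tumors 1, 2, 3 and 4, 5.22 without tumor a and 6.39 without tumor b. The adjusted p-values ranged from 0.0125 to 0.130 over the libraries left out in turn (edgeR).

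The levels of Slc12a8 given above for BF BSHlow and BF BSHhigh tumors did not overlap either, with a log2 fold change of 2.08 ± 0.45 that missed the threshold (edgeR, adjusted p = 0.0846). It passed with DESeq2 (adjusted p = 0.000405), and in edgeR with no filter on low counts (adjusted p = 0.0349) and in the fit of all 15 libraries of 12 weeks (adjusted p = 0.00398), and was 1.48 without tumor a. Slc26a2 overlapped through tumor c and had a log2 fold change of 1.38 ± 0.41 (edgeR, adjusted p = 0.200). It passed with DESeq2 (adjusted p = 0.0156), and in edgeR in the fit of all 15 libraries (adjusted p = 0.0403) and without tumor c (1.76, adjusted p = 0.0262). Slc9a2 also overlapped, with a log2 fold change of 1.06 ± 0.46 (edgeR, adjusted p = 0.396) that was 0.25 without tumor a. Of the members higher in tumors than in non-tumor tissues, Slc9a3 was at 309 ± 36.2 CPM in BF BSHlow and 321 ± 48.6 CPM in BF BSHhigh tumors, which differed by less than the spread. Slc9a4 and Slc12a4 were lower in BF BSHhigh tumors without overlap, by log2 fold changes of -0.97 ± 0.27 and -0.45 ± 0.14 (edgeR, adjusted p = 0.167 and 0.223), and Slc4a11 with overlap, by -0.64 ± 0.23 (edgeR, adjusted p = 0.3001). All 3 were under the limit of 1, and Slc9a4 had a DESeq2 adjusted p = 0.0176.

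Whether the difference between tumors and non-tumor tissues depended on the strain was tested as an interaction. Slc26a3 was the 1 of 31 members that passed in edgeR, where 0.978% of 16454 genes did (161, against 386 with DESeq2). At an unadjusted p-value of 0.05 past the same fold 4 members passed, where 901 of the 16454 genes did. These were Slc26a3, Slc26a2, Slc9a2 and Slc12a8. DESeq2 counted 2, Slc26a3 and Slc26a2. The difference between the log2 fold changes with BF BSHhigh and BF BSHlow was 6.82 ± 0.93 for Slc26a3 (edgeR, adjusted p = 0.00595), so that it was less far below non-tumor tissues in BF BSHhigh tumors. It passed in each of the 15 fits that left out 1 library, and was 5.81 without tumor a. For Slc26a2 the difference was 1.94 ± 0.48 (edgeR, adjusted p = 0.0803), which passed with DESeq2 (adjusted p = 0.00416) and without tumor c (2.33). For Slc9a2 it was 1.39 ± 0.51 (edgeR, adjusted p = 0.336), 0.60 without tumor a and past the threshold at 1.77 without tumor c, and for Slc12a8 1.21 ± 0.46 (edgeR, adjusted p = 0.364). The median over the members was -0.04, against 0.03 over all genes tested.

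**Figure D3:**
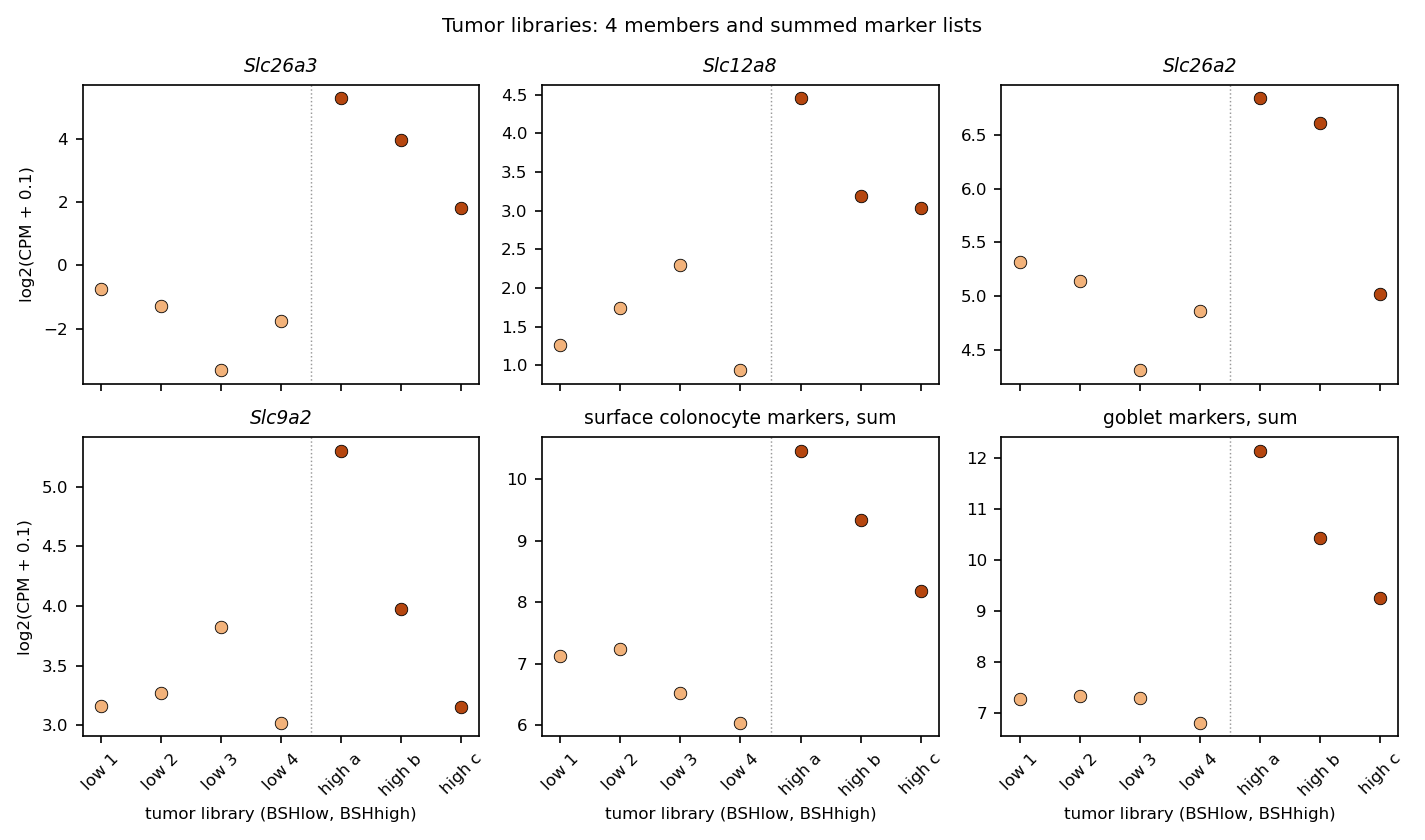
Levels (vertical axes, CPM on log scales) of Slc26a3, Slc12a8, Slc26a2 and Slc9a2 and the summed levels of the surface colonocyte and goblet cell markers in the 4 BF BSHlow and 3 BF BSHhigh tumor libraries, with a point for each library. Tumor a is the highest of the 7 in each panel, with Slc26a3 at 39.1 CPM and a goblet sum of 4531 CPM.

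Surface and goblet markers stood highest in the same tumors. The surface colonocyte sums were 139.9, 151, 91.2 and 65.4 CPM in BF BSHlow tumors and 1417, 644 and 291 CPM in tumors a, b and c, and the goblet sums 155, 161, 156 and 112 CPM and 4531, 1382 and 613 CPM. Both sums were higher in each BF BSHhigh tumor than in every BF BSHlow tumor, and tumor a was the highest and tumor c the lowest of the BF BSHhigh tumors, as for Slc26a3, Slc12a8, Slc26a2 and Slc9a2. In edgeR, 2 of 8 surface markers and 2 of 6 goblet markers were higher in BF BSHhigh tumors, and 6 and 6 at an unadjusted p-value of 0.05, and in the interaction 5 of 8 and 4 of 6 were higher. Over all genes, 73 of 15325 passed between the tumors and 841 at the unadjusted p-value, and 161 of 16454 passed in the interaction. Of the other 9 lists, 0 markers passed in edgeR in either comparison. At an unadjusted p-value of 0.05, 1 smooth muscle and 2 leukocyte markers passed between the tumors, and 1 smooth muscle, 2 neuron and glia, 1 leukocyte and 1 erythroid marker in the interaction. DESeq2 counted 1 leukocyte marker between the tumors and 0 in the interaction. The part of surface and goblet cells in the results on Slc26a3 was not tested.

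Of the 28 other genes of salt transport, 6 passed between the tumors at an unadjusted p-value of 0.05 and 4 with DESeq2, where 841 and 534 of 15325 genes did. In edgeR at the adjusted p-value 1 passed, where 73 of the 15325 genes did. This was Atp12a, at 2.40, 0.974, 4.48 and 0.586 CPM in BF BSHlow tumors and 232, 129 and 29.4 CPM in BF BSHhigh tumors, with a log2 fold change of 5.92 ± 0.84 (edgeR, adjusted p = 0.0406). Its groups did not overlap, and the call was lost without any library but tumor c, at 6.00, 5.70, 6.59 and 5.61 without BF BSHlow tumors 1, 2, 3 and 4 and 5.20 and 5.94 without tumors a and b. In the interaction, where 161 of 16454 genes passed, 3 of the 28 were higher, Atp12a (6.40 ± 0.91), Pdzd3 (4.13 ± 0.72) and Best2 (4.11 ± 0.78). Without tumor a these were 5.68, 3.31 and 2.87, and Atp12a was 7.08 without BF BSHlow tumor 3. The call of Best2 was lost without BF BSHhigh non-tumor replicate 3 (4.04) or 4 (4.0) or BF BSHlow tumor 3 (3.92) or 4 (3.97).

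Between the strains, 0 of 26 members tested passed in non-tumor tissues, where 0% of 14933 genes did in edgeR, with 0 at an unadjusted p-value of 0.05 and 0 with DESeq2 past the same fold. DESeq2 gave Slc9a3, at 1.70 in edgeR, no adjusted p-value in this comparison. The median was 0.02 over the members and -0.01 over all genes. Slc12a8, Slc4a7 and Slc26a2 did not overlap between the groups. The share of all genes without overlap is not given for any comparison, so this is not a result on the members as a set. Slc12a8 was at 51.9, 43.2, 39.6 and 36.8 CPM with BF BSHlow and 98.5, 82.9, 56.4 and 77.7 CPM with BF BSHhigh, a log2 fold change of 0.87 ± 0.17 (edgeR, adjusted p = 0.271 and DESeq2, adjusted p = 0.000808). Slc4a7 was at 152, 144, 129 and 121 CPM with BF BSHlow and 225, 219, 173 and 180.1 CPM with BF BSHhigh, a log2 fold change of 0.54 ± 0.11 (edgeR, adjusted p = 0.307 and DESeq2, adjusted p = 0.00380). Slc26a2 had one of -0.54 ± 0.19 (edgeR, adjusted p = 0.467), and all 3 were under the limit of 1. Of the 26 other genes of salt transport tested, 0 passed, with 0 at an unadjusted p-value of 0.05 and 0 with DESeq2, while Kcnma1 was under the limit of 1 at 0.64 ± 0.16 (DESeq2, adjusted p = 0.0314). Among the marker lists 0 genes passed in edgeR, while at an unadjusted p-value of 0.05 all 3 neutrophil and 5 of 5 erythroid markers tested did, and 1 each of the goblet, neuron and leukocyte markers. Over all genes, 213 of 14933 passed at the unadjusted p-value. DESeq2 counted 1 goblet and 1 erythroid marker.

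In normal colon at 2 weeks, 0 of 24 members tested passed between the strains, where 0.00727% of 13752 genes did in edgeR. At an unadjusted p-value of 0.05 and with DESeq2, past the same fold, it was 1 member, Slc26a1, a sulfate transporter. Over all genes tested it was 177 at the unadjusted p-value and 28 with DESeq2. Slc9a3 (0.97 ± 0.26) and Slc9a9 (0.62 ± 0.23) were higher with BF BSHhigh without overlap but under the limit of 1. Here too the share of all genes without overlap is not given. The median log2 fold change was -0.05 over the members and -0.002 over all genes tested. Slc26a1 was at 3.71, 6.17, 14.6 and 1.76 CPM with BF BSHlow and at 0.454, 1.18, 0.297 and 0.481 CPM with BF BSHhigh. The groups did not overlap, and BF BSHlow replicate 3 was the highest. In edgeR the log2 fold change was -3.41 ± 0.68 (edgeR, adjusted p = 0.401 and DESeq2, adjusted p = 0.000131), -2.66 without BF BSHlow replicate 3, and past the threshold at -3.72 without BF BSHlow replicate 4, with adjusted p-values of 0.0436 to 0.987 over the libraries left out (edgeR). Exons of Slc26a1 overlap those of Idua on the opposite strand, and a use of strand in counting was not stated, so reads of the pair cannot be told apart. Of the 26 other genes of salt transport tested, 0 passed in edgeR, with 1 at an unadjusted p-value of 0.05 and 1 with DESeq2, in both cases Atp12a. Among the marker lists 0 genes passed in edgeR, with 1 surface and 1 leukocyte marker at an unadjusted p-value of 0.05, and DESeq2 counted the 1 surface marker. The 3 neutrophil markers were not tested at 2 weeks.

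Non-tumor tissues at 12 weeks were compared with normal colon at 2 weeks within each strain, in a fit of these 16 libraries. Slc9a2, Slc9a3, Slc9a4, Slc4a2 and Slc26a1 were lower at 12 weeks with both strains, and Slc4a3, Slc9a7, Slc9a9, Slc12a4 and Slc26a7 were higher. With BF BSHlow 13 of 28 members tested passed in edgeR, 6 higher and 7 lower, where 25.0% of 15532 genes did. Of the 28 members, 10 were called with BF BSHhigh, 5 higher and 5 lower, where 24.4% of 15532 genes did. DESeq2 counted 13 and 10. Only members past a filter on low counts were tested. One that passed through the time point where it is high had to differ, as Slc26a1 and Slc26a7, with 0 or 1 counts at the other time point. These counts of members called therefore do not describe all members, and their distance from the share of all genes is not a result on the members as a set. The median log2 fold change was -0.19 and -0.30 over the members, against 0.00 and 0.03 over all genes, and members at 0 or 1 counts in a group do not move it when put at their bound. Time, age, length of the diet and any batch cannot be told apart here, and the non-tumor libraries are also those of the comparison with tumors.

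**Figure D4:**
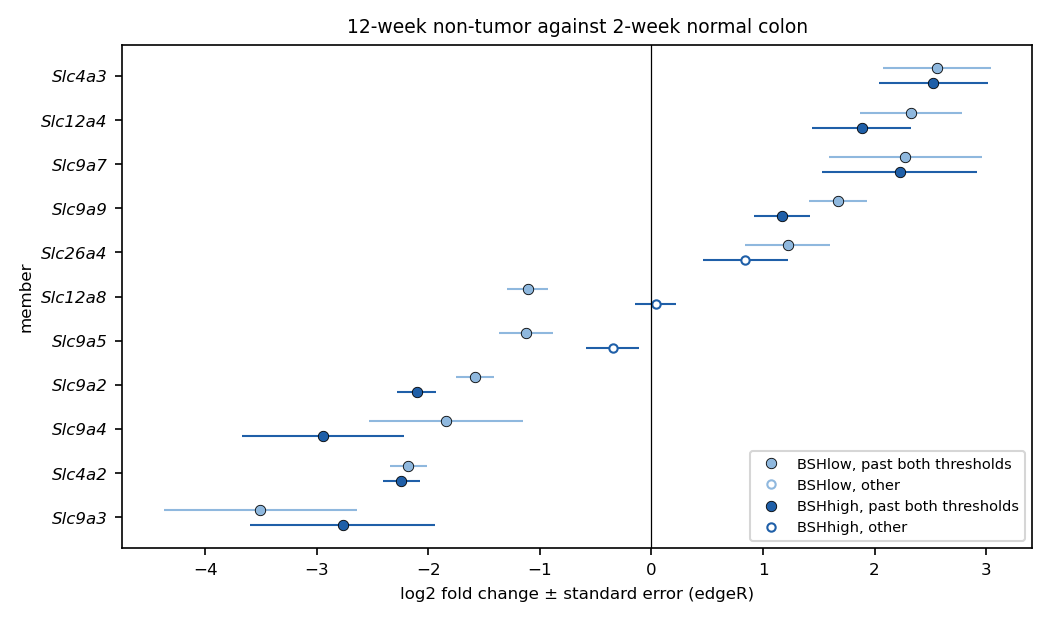
Log2 fold change of 12-week non-tumor tissues over 2-week normal colon for the 11 members drawn of those that passed with at least 1 strain (horizontal axis, with SE bars) in BF BSHlow and BF BSHhigh mice, where filled points passed both thresholds in edgeR. Slc9a3 lies at -3.50 and -2.77 and Slc4a3 at 2.56 and 2.53, and Slc26a1 and Slc26a7 are not drawn because a group had 0 or 1 counts.

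Slc9a2 was at 641, 507, 713 and 540.0 CPM at 2 weeks with BF BSHlow and at 784, 687, 626 and 710.3 CPM with BF BSHhigh. All of these libraries were above the 12-week non-tumor libraries given above, and the log2 fold changes were -1.58 ± 0.17 (edgeR, adjusted p = 4.88e-06) and -2.10 ± 0.18 (edgeR, adjusted p = 5.81e-07). Slc9a3 was at 330.2, 117, 198 and 169 CPM at 2 weeks with BF BSHlow and at 456, 385, 403 and 360.2 CPM with BF BSHhigh. It was lower at 12 weeks in every library of its strain, by log2 fold changes of -3.50 ± 0.87 (edgeR, adjusted p = 0.00364) and -2.77 ± 0.83 (edgeR, adjusted p = 0.0116). These were -4.23 without BF BSHlow non-tumor replicate 4 and -5.04 without BF BSHhigh non-tumor replicate 1.

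Slc9a4 was at 0.910, 0.583, 0.568 and 1.05 CPM at 2 weeks with BF BSHlow, which overlapped the 12-week range, and at 0.454, 0.883, 0.891 and 2.00 CPM with BF BSHhigh, which did not. The log2 fold change with BF BSHhigh was -2.94 ± 0.73 (edgeR, adjusted p = 0.00361). With BF BSHlow it was -1.84 ± 0.69 (edgeR, adjusted p = 0.0382) and -3.03 without non-tumor replicate 4, and the call was lost with no filter on low counts (-1.85) and without non-tumor replicate 1 (-1.59), 2 (-1.40) or 3 (-1.82) or 2-week replicate 1 (-1.77) or 4 (-1.66). Slc9a7, an exchanger of the trans-Golgi network, was at 0.455, 0, 0.189 and 0.422 CPM at 2 weeks and 2.30, 1.14, 0.954 and 1.10 CPM at 12 weeks with BF BSHlow. In the BF BSHhigh libraries it was at 0.363, 0.515, 0.0742 and 0.0801 CPM at 2 weeks and 1.0, 0.436, 1.70 and 1.80 CPM at 12 weeks. The groups overlapped only with BF BSHhigh, and the log2 fold changes were 2.28 ± 0.69 (edgeR, adjusted p = 0.0124) and 2.22 ± 0.69 (edgeR, adjusted p = 0.0147), the latter 2.83 without 2-week replicate 2.

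Of the remaining Slc9a genes, the endosomal Slc9a9 had log2 fold changes of 1.67 ± 0.26 and 1.17 ± 0.25, the latter no longer past the limit without non-tumor replicate 4 (1.0). Slc9a5 fell by 1.12 on the log2 scale with BF BSHlow and not past the threshold without non-tumor replicate 4 (-0.93).

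Slc4a2 was at 537, 426, 357 and 452 CPM at 2 weeks with BF BSHlow and at 513, 544, 362 and 519.5 CPM with BF BSHhigh. Every 2-week library was above every 12-week library. The log2 fold changes were -2.18 ± 0.17 (edgeR, adjusted p = 2.34e-07) and -2.24 ± 0.17 (edgeR, adjusted p = 1.91e-07). Slc4a3 was at 0.531, 1.08, 0.663 and 0.492 CPM at 2 weeks with BF BSHlow and at 0.363, 0.515, 1.48 and 0.160 CPM with BF BSHhigh, below all 12-week libraries. Its log2 fold changes were 2.56 ± 0.48 (edgeR, adjusted p = 0.000516) and 2.53 ± 0.49 (edgeR, adjusted p = 0.000583), the latter 3.39 without 2-week replicate 3. Slc4a4 was at 161, 134, 120.5 and 184 CPM at 2 weeks with BF BSHlow and at 137, 131, 111 and 163 CPM with BF BSHhigh, within the range of the 12-week non-tumor libraries.

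Slc12a4 was at 0.758, 1.25, 2.75 and 1.48 CPM at 2 weeks with BF BSHlow and at 1.91, 3.02, 3.34 and 0.801 CPM with BF BSHhigh, below all 12-week libraries. The log2 fold changes were 2.33 ± 0.46 (edgeR, adjusted p = 0.000734) and 1.89 ± 0.45 (edgeR, adjusted p = 0.00263). Slc12a8 was at 84.9, 95.1, 84.4 and 103 CPM at 2 weeks with BF BSHlow and at 73.5, 65.8, 109 and 60.6 CPM with BF BSHhigh. It fell by 1.11 on the log2 scale with BF BSHlow (edgeR, adjusted p = 0.000178), while the BF BSHhigh groups overlapped, and whether the strains differed in this was not tested. Slc12a2 was at 484, 503, 307 and 425 CPM at 2 weeks with BF BSHlow, which overlapped the 12-week range, and at 349.6, 372, 443 and 379 CPM with BF BSHhigh, just below it.

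Slc26a1 had 302 counts at 2 weeks and 0 at 12 weeks with BF BSHlow, at least 123-fold lower over a floor of 3 counts in the 12-week group (edgeR, adjusted p = 2.82e-05). There were 31 counts with BF BSHhigh at 2 weeks and 1 at 12 weeks, that of non-tumor replicate 3, a ratio of 38.0 with a 95% counting interval of 6.33 to 1548 (edgeR, adjusted p = 0.00451). Of the 302 counts, 154 were in 2-week replicate 3. In tumors, where Slc26a1 was not tested, it had 25 counts with BF BSHlow and 10 with BF BSHhigh. Slc26a7 had 0 counts at 2 weeks in both strains and 32 and 53 at 12 weeks, 19 of the 32 in non-tumor replicate 2, so that it was higher by at least 8.72-fold with BF BSHlow and at least 14.4-fold with BF BSHhigh over the same floor (edgeR, adjusted p = 0.0170 and 0.00693).

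Slc26a4, the anion exchanger pendrin, had a log2 fold change of 1.22 ± 0.38 with BF BSHlow (edgeR, adjusted p = 0.0144), lost without non-tumor replicate 3 (1.01) and with the replicate number as a block (1.21). Slc26a3 was at 391, 483, 1357 and 250.4 CPM at 2 weeks with BF BSHlow and at 828, 294, 977 and 314 CPM with BF BSHhigh, whereas Slc26a2 was at 776, 629.5, 1268 and 771 CPM and 1044, 638, 748 and 709 CPM. Both overlapped their 12-week non-tumor levels, as did Slc26a6 with BF BSHhigh, at 2.09, 3.68, 1.41 and 4.17 CPM, while at 2.50, 2.00, 2.84 and 3.09 CPM with BF BSHlow it was above them. Slc26a9 and Slc4a5, high in tumors, had 0 and 17 counts at 2 weeks with BF BSHlow and 1 and 19 with BF BSHhigh, and were not tested over time.

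Of the other genes of salt transport, 7 of 27 tested passed over time with BF BSHlow, 3 higher and 4 lower. With BF BSHhigh 8 of 27 did, 4 higher and 4 lower. These were 25.9% and 29.6% of those tested, near the 25.0% and 24.4% of all genes tested. Atp12a was at 0.910, 3.92, 4.83 and 5.41 CPM at 2 weeks with BF BSHlow and 266, 38.5, 84.3 and 5.77 CPM with BF BSHhigh. It was higher at 12 weeks without overlap, by 7.77 ± 0.98 and 2.63 ± 0.75, the latter 3.83 without 2-week replicate 1. Best2 rose by 3.57 ± 0.31 and 3.46 ± 0.31 and the chloride channel Ano1 by 3.35 ± 0.47 and 2.58 ± 0.46, while Slc9a3r1, a scaffold that holds Slc9a3 at the apical membrane, fell by 1.46 and 1.71 on the log2 scale.

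Markers of muscle, nerve, stroma and blood moved with time as well. All 6 smooth muscle, all 7 neuron and glia and all 4 fibroblast markers were higher at 12 weeks with both strains, and so were all 5 erythroid markers tested. At 2 weeks the smooth muscle markers summed to 52.5, 174, 49.8 and 45.3 CPM with BF BSHlow and 7.08, 148, 206 and 48.6 CPM with BF BSHhigh, with Tagln the largest part, and the neuron and glia markers to 5.0, 7.67, 2.37 and 3.23 CPM and 4.90, 5.37, 6.16 and 6.33 CPM, with Snap25 the largest part. All of these were below the 12-week non-tumor sums given above. For BF BSHlow and BF BSHhigh in this order, the fibroblast markers, led by Col3a1, summed to 54.7, 60.6, 149.6 and 134 CPM and 38.4, 74.3, 186 and 41.0 CPM at 2 weeks and to 637, 2546, 960.1 and 259 CPM and 566, 532, 599 and 1025 CPM at 12 weeks. The erythroid markers, led by Hbb-bs, summed to 29.0, 52.6, 34.1 and 44.8 CPM and 36.1, 54.4, 112 and 22.8 CPM at 2 weeks and to 314, 338, 134 and 122 CPM and 209, 2461, 1229 and 549 CPM at 12 weeks. None of these markers was at 0 in all libraries of a group.

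The surface colonocyte markers, led by Car1 at 2 weeks, summed to 19573, 21000.4, 25644 and 15249 CPM and 18862, 19414, 15295 and 18979 CPM, above all 12-week libraries. Car1 was at 6592 to 18566 CPM at 2 weeks and at 60.1 to 707 CPM at 12 weeks, so the difference between the sums rests largely on this gene. The median log2 fold change over the 8 markers was 0.32 with BF BSHlow and -0.46 with BF BSHhigh. Of these 8 markers, 1 was higher and 3 lower at 12 weeks with BF BSHlow and 3 were lower with BF BSHhigh. The neutrophil markers, with sums of 0.758 to 0.986 CPM and 0.160 to 0.883 CPM at 2 weeks, were higher at 12 weeks, 1 of 3 with BF BSHlow and 3 of 3 with BF BSHhigh, and so were the endothelial markers, 2 of 3 and 3 of 3. Of 5 leukocyte markers, 2 were higher with BF BSHlow, and 3 were higher and 1 lower with BF BSHhigh. Of the 6 goblet markers 1 was lower with BF BSHlow and 1 higher with BF BSHhigh, of 4 WNT markers tested 1 was higher and 1 lower with BF BSHlow and 1 higher with BF BSHhigh, and of the 7 epithelial markers 0 passed in edgeR with either strain, with 0 at an unadjusted p-value of 0.05 and 0 with DESeq2. The part of these cell types in the results over time was not tested.

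Members near the limit of detection account for most of the rest. A mean under 1 CPM in every group was found for 9 members, Slc4a9, Slc4a10, Slc12a1, Slc12a3, Slc12a5, Slc26a5, Slc26a7, Slc26a8 and Slc26a10, with at most 115 counts over all libraries. Slc26a5, the motor protein prestin of the inner ear, had 1 count, and Slc12a1 and Slc12a3, the salt cotransporters of the kidney, had 9 and 35. Between tumors and non-tumor tissues 8 members were not tested, Slc4a9, Slc4a10, Slc12a1, Slc12a3, Slc26a1, Slc26a5, Slc26a8 and Slc26a10, and over time 11, the same without Slc26a1 and with Slc4a1, Slc4a5, Slc12a5 and Slc26a9. Between the strains, 9 were not tested in tumors, 13 in non-tumor tissues and 15 at 2 weeks. Slc4a1, the exchanger of red cells, was highest at 2.67 CPM in BF BSHhigh tumor c, the tumor of that group with the highest erythroid sum, 3164 CPM. Slc4a8, a sodium-driven exchanger of chloride and bicarbonate, had group means of 2.07 to 2.87 CPM, and Slc26a11 of 4.23 to 7.93 CPM, and neither passed in any of the 8 comparisons. Slc9a8 had means of 27.3 to 75.2 CPM, and Slc12a7 and Slc12a9 of 81.9 to 164 and 11.8 to 18.2 CPM.

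Some members share exon sequence with a neighbour. Exons on the opposite strand overlap those of Slc4a2 (Fastk and Gm22333), Slc9a4 (Gm35801 and Gm37435), Slc12a4 (Gm16156) and Slc26a10 (B4galnt1), besides Slc26a1 described above. The library kit keeps the strand, but whether the counting used it was not stated, so the levels of these members are uncertain by the reads of the overlap.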

How the data were processed

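RNA-seq had been performed on 23 mouse colon libraries, and the authors deposited RSEM expected counts for each gene, of which 4.237% were not whole. The submitters' processing notes name Cutadapt, STAR, Picard, RSEM and mm10. The library kit was described as stranded mRNA in the methods and as stranded total RNA in the labels. The methods name the NetworkAnalyst platform without the test run in it, and a legend gives a t test. The expected counts were rounded, scaled by TMM, filtered with filterByExpr and tested with edgeR's quasi-likelihood test, with Benjamini-Hochberg adjustment over all genes tested. A gene was called at an adjusted p-value under 0.05 with an absolute log2 fold change over 1, and the SE was the absolute log2 fold change over the square root of F. The columns taken as BF BSHhigh tumors repeat the names of BF BSHlow tumors in the header, and were assigned as a group from a table of the study. The gene Fgf6, with text in a cell, was left out. In 33 pairs of replicates, chi-square divided by its degrees of freedom was 16.6 to 126 (genes of 20 counts or more in the pair), so none were merged. A legend of the paper calls the 12-week samples independent and their sizes pooled, but neither it nor the labels say whether replicates came from separate animals, so p-values measure the spread between these libraries, which may be technical.

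The strains were compared within 2 groups. The other comparisons shared a fit of 15 libraries (12 weeks) or 16 (normal and non-tumor tissues). CPM was set over all 23 libraries, and exon lengths were the union of exons in GENCODE M21. Given with every library's value were members called with a mean of at least 1 CPM in the higher group (up to 8 per tumor comparison and 5 per other comparison, by size of change) and 9 members known from the colon, of which 1 is not reported here. The members, 28 other genes of salt transport and 60 markers in 11 lists were chosen with earlier results of these data known. Alternatives were DESeq2, RLE scaling, no filter on low counts, the adjusted p-value alone, the other choice of libraries in the fit, the replicate number as a block, and leaving out each library in turn. Scripts were tested on simulated counts. R 4.3.3, edgeR 4.0.16, limma 3.58.1, DESeq2 1.42.0, Python 3.11.15, pandas 2.3.3, numpy 2.4.6, scipy 1.17.1 and matplotlib 3.10.9 were used.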

Additional observations from a re-analysis of the deposited data

Results flagged for a closer look

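In sets of 4 libraries of one group, a single library stood far from the rest in 5 of 69 sets tested, where chance gives about 1 in 20 for normally distributed levels. The levels were taken as CPM without a log, and whether 5 is more than chance gives was not tested. Slc9a3 was at 199 CPM in replicate 1 of the BF BSHhigh non-tumor tissues, against 8.28 to 19.1 CPM in the other libraries of that group. In replicate 4 of the BF BSHlow non-tumor tissues Slc9a3 was at 39.1 CPM, against 9.20 to 12.2 CPM. Slc4a2 was at 131 CPM in replicate 1 of the BF BSHhigh non-tumor tissues, against 89.8 to 95.1 CPM. Slc4a3 was at 6.93 CPM in replicate 2 of the BF BSHlow non-tumor tissues, against 2.90 to 3.33 CPM. Slc9a7 was at 2.30 CPM in replicate 1 of the BF BSHlow non-tumor tissues, against 0.954 to 1.14 CPM. The tumor against non-tumor difference of Slc26a3 differed between the strains by 6.82 on the log2 scale in the edgeR interaction test.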

How the results depend on the processing

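Followed over the alternatives were 114 log2 fold changes, those of members that passed both thresholds with the adjusted or the unadjusted p-value, of other genes of salt transport called, and of a few further members. None of these 114 changed direction. Members that did not pass could, as Slc9a3 between the strains, at 1.70 in non-tumor tissues with -0.56 to 2.42 over the libraries left out, and at 0.04 in tumors with -0.07 to 0.14. Of 1542 values compared, 1472 kept their direction and side of the threshold, 52 lost a call and 18 gained one, and 85 of 99 called fold changes were called under every setting. Of 113 counts of called members, 96 stayed within 1.5 times, 8 were lower and 9 higher. Between the tumors of the strains, where 1 member was called, DESeq2 called 3, the fit of all 15 libraries of 12 weeks 3 and the fit with no filter on low counts 2, and leaving out a library gave 0 to 2. At 2 weeks, with 0 called, DESeq2 called 1 and leaving out a library gave 0 to 1. In the interaction, with 1 called, DESeq2 called 2 and leaving out a library gave 1 to 3. Over time with BF BSHhigh, with 10 called, the adjusted p-value alone called 17, as it drops the limit on the fold change, and fitting only the groups compared called 6. Otherwise the cause was not tested.

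Over all genes, edgeR and DESeq2 called 73 and 534 between the tumors, 0 and 53 between the non-tumor tissues, 1 and 28 at 2 weeks and 161 and 386 in the interaction. Between the tumors the fit of all 15 libraries called 510, no filter on low counts 320 and leaving out a library 0 to 240.

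The pairing of equal replicate numbers was checked in 20 pairs, whose deviations from the group means correlated by -0.173 to 0.26, with 4 pairs over 0.1 and 6 libraries closest to their own number, so the numbers were not taken to pair the libraries. With the replicate number as a block, 0 members were called between the strains in non-tumor tissues, 0 at 2 weeks, 12 between BF BSHlow tumors and non-tumor tissues, and 10 and 6 over time with BF BSHlow and BF BSHhigh. The last 3 of these fits also held only the groups compared, which without the block called 11, 11 and 6, so the difference from the main fit is not that of the block alone. No paired analysis was run for BF BSHhigh tumors, because the header gives their columns the names and numbers of BF BSHlow tumors.

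With 3 or 4 libraries a group, members under about 1 CPM rest on few counts, and their folds depend on single libraries. A comparison that called no member does not show that levels were equal. The 3 BF BSHhigh tumors differed among themselves in surface and goblet markers, so what is said of the strains in tumors rests on few libraries.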
